A study of Mus musculus with 4 samples.

Results

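The set comprised 10 genes that encode regulators of the branched actin network: Cyfip1, Cyfip2, Nckap1l, Wasf2 and Abi1 of the WAVE complex, Was and Wipf1 of the WASP pathway, the exchange factors Dock2 and Dock8, and Coro1a. They are 10 of the 37310 genes counted, and each matched 1 row by its symbol. The set was chosen by earlier results of these data, in which Cyfip1 was among the genes called lower in the mutant cells, and its paralogue and partners were added around it. All values of the mutant against control contrast for these 10 genes are therefore given as a description, with no p-value.

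RNA was sequenced from bone marrow natural killer (NK) cells of C57BL/6 mice aged 6 to 8 weeks, sorted by FACS as CD3e-NK1.1+CD49b+ and lysed in Trizol, with Smart-seq2 libraries that amplify full-length cDNA. The control group (Ctrl) held 2 biological replicates from littermates, whose alleles the labels do not give. The mutant group (dKO) held 2 replicates of the genotype Gabpb1l-/-Gabpb2-/-, described as deficient in the GABPα2β2 tetramer. GABP is an Ets-family transcription factor that binds DNA through its alpha subunit and activates through its beta subunits.

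Actin branches when the Arp2/3 complex starts a new filament on the side of an old one, once an activator such as a WAVE or WASP protein switches it on. The WAVE complex is an assembly in which a CYFIP subunit senses active Rac and a NAP1 subunit, an ABI protein and BRK1 hold the WAVE protein silent until then. WASP is opened by Cdc42 and kept stable by WIP. In NK cells this network builds the lamellipodium of a moving cell and the synapse through which a target cell is killed, and inherited loss of Was, Wipf1, Nckap1l, Dock2, Dock8 or Coro1a causes immune deficiency in humans.

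Gene counts summed to between 30233870 and 34724516 per library. Gabpb2, the deleted gene, was at 36.5 and 30.4 CPM (counts relative to library sizes scaled by TMM) in Ctrl but 2.65 and 2.85 CPM in dKO. A whole-gene count of Gabpb1 does not check the long form named in the genotype. The 11 NK cell markers summed to 17285 and 17288 CPM in the Ctrl pair against 14545 and 14404 CPM in the dKO pair, and each was detected in every library. Of these 11, 6 were lower in both dKO libraries than in both Ctrl libraries, and 0 were higher. Of all 13904 genes tested, 41.6% had groups that did not overlap in CPM, in either direction. Xist and 4 Y-linked genes separated the groups: Xist was at 178 and 194 CPM in Ctrl and under 1 CPM in dKO, and the Y-linked genes had 0 counts in both Ctrl libraries. Genotype and sex chromosome content cannot be told apart in any contrast below. With 2 libraries against 2, an exact two-sided permutation test cannot give a p below 0.333, so adjusted p-values rest on the spread that the fit shares across genes.

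Cyfip1, the CYFIP subunit through which Rac docks on the WAVE complex and which also binds the RNA-binding protein FMRP, was the member with the lowest level and the largest difference. It had 1267 and 1277 counts in Ctrl 1 and Ctrl 2, and 241 and 247 counts in dKO 1 and dKO 2. On the CPM scale these were 37.2 and 38.5 for Ctrl, but 7.50 and 8.17 for dKO. Both dKO libraries lay far below both Ctrl libraries, and the libraries within a group were nearly equal. The group means were 37.8 ± 0.896 CPM in Ctrl and 7.84 ± 0.477 CPM in dKO (SD, n = 2). The fitted log2 fold change was -2.27 (SE 0.22), so that the dKO libraries held 20.7% of the Ctrl level. In bulk libraries, fewer cells that carry a transcript and less of it per cell cannot be told apart. Among the 8164 genes whose mean reached 10 CPM, this was the 10th lowest log2 fold change.

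Cyfip2, the paralogue that can take the same place in the complex, measured 387 and 466 CPM in the Ctrl pair against 429 and 368 CPM in the dKO pair. Cyfip2 lies on chromosome 11 from 46193850 to 46312859 and Cyfip1 on chromosome 7 from 55841745 to 55932602 in GRCm38 (GENCODE M21, matched by Ensembl identifier, not the build of the counts). The 2 groups of Cyfip2 values overlapped, with 1 dKO library between the Ctrl libraries and the other below them. Its log2 fold change was -0.10 (SE 0.17), against -2.27 for Cyfip1, a gap of -2.17 between the paralogues. The gap ranged from -2.342 to -1.997 when each library was left out in turn.

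Levels of different genes were compared in TPM, the authors' transcript levels scaled for gene length and library size. Cyfip2 was the main CYFIP transcript in every library: Cyfip1 was at 14.9 and 18.3 TPM in Ctrl and 3.0 and 3.8 TPM in dKO, and Cyfip2 at 92.6, 117.6, 112.1 and 85.7 TPM in the order Ctrl 1, Ctrl 2, dKO 1 and dKO 2. Cyfip1 thus made up 13.9% and 13.5% of CYFIP transcripts in Ctrl, but 2.61% and 4.25% in dKO. The sum of both paralogues was 108 and 136 TPM in Ctrl and 115 and 89.5 TPM in dKO, so the groups overlapped on the total. The share of Cyfip1 differed between groups by more than the spread of the libraries, which restates the difference of Cyfip1 itself, while the total did not.

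**Figure D1:**
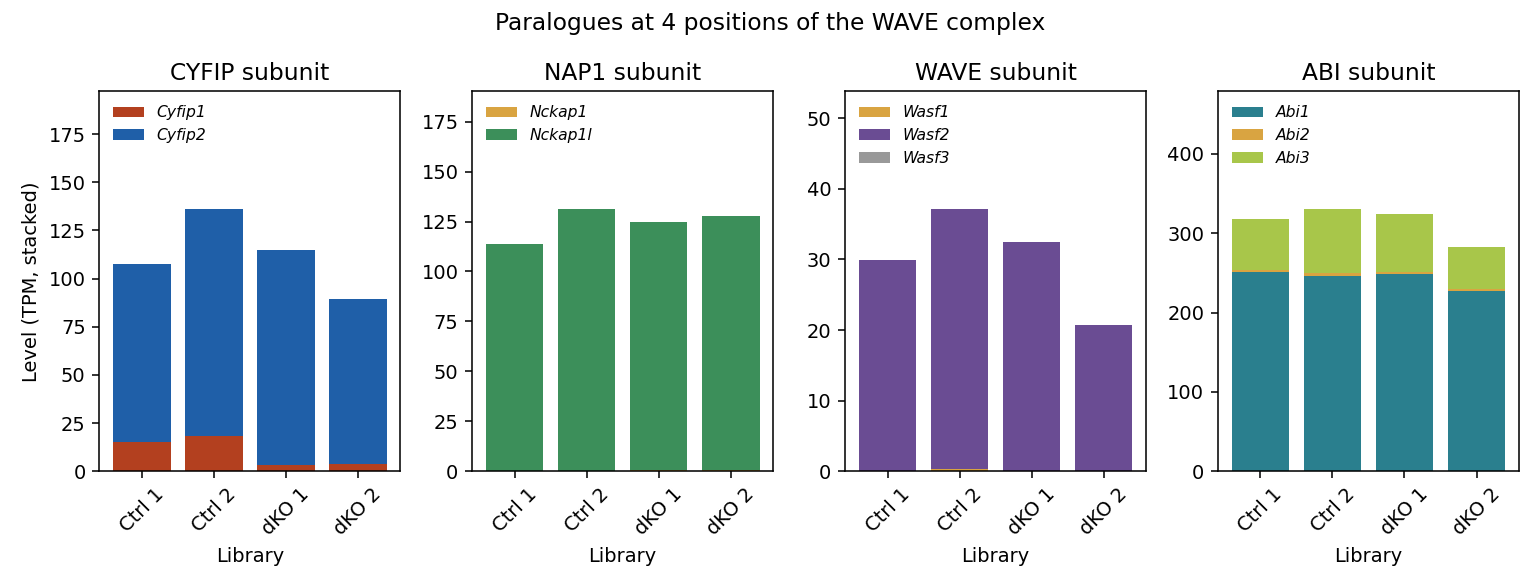
Stacked bars give the level in TPM (vertical axis) of each paralogue at 4 positions of the WAVE complex in the 4 libraries (horizontal axis). Cyfip1 is 13.9% and 13.5% of the CYFIP bar in Ctrl and 2.61% and 4.25% in dKO, and Nckap1l, Wasf2 and Abi1 form most of their bars in every library.

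For the partners of the CYFIP subunit the groups overlapped. Nckap1l, which encodes HEM1, the NAP1 subunit of blood cells, measured 339 and 369 CPM in the Ctrl pair against 342 and 395 CPM in the dKO pair. These values interleaved, and the log2 fold change was 0.06 (SE 0.15). Abi1, an adaptor subunit that joins WAVE to the rest of the complex, measured 348 and 307 CPM in the Ctrl pair against 304 and 328 CPM in the dKO pair, with overlapping groups and a log2 fold change of -0.05 (SE 0.15). Wasf2, which encodes WAVE2, the subunit that touches Arp2/3, measured 103 and 121 CPM in the Ctrl pair against 108 and 72.2 CPM in the dKO pair. Only the second dKO library lay below both Ctrl libraries, and the log2 fold change was -0.31 (SE 0.22), -0.63 without dKO replicate 1 and -0.0551 without dKO replicate 2.

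Within each library Cyfip1 was also set against each partner. The Cyfip1 to Nckap1l ratio of TPM was 0.132 and 0.140 in Ctrl and 0.0242 and 0.0298 in dKO. The Cyfip1 to Abi1 ratio was 0.0596 and 0.0746 in Ctrl and 0.0120 and 0.0167 in dKO. The Cyfip1 to Wasf2 ratio was 0.499 and 0.497 in Ctrl and 0.0923 and 0.183 in dKO. Each ratio is Cyfip1 over a partner whose own difference was small, so the gap between the groups restates that of Cyfip1. In dKO the ratio to Wasf2 was the most uneven, where Wasf2 itself differed between the libraries. The dKO minus Ctrl difference of the log2 ratio was -2.34 for Nckap1l, -2.23 for Abi1 and -1.94 for Wasf2.

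The other WAVE subunits filled out the picture of which paralogues these cells use. Nckap1, the NAP1 subunit of most other tissues, had 3 and 21 counts in Ctrl and 49 and 71 counts in dKO, at most 0.641% of NAP1 transcripts (TPM). Wasf1 and Wasf3, the other WAVE genes, were at most 0.24 TPM and did not pass the filter on low counts. Abi2 was at 2.62 to 3.98 TPM. Abi3, a further ABI protein, was at 52.8 to 80.4 TPM, but its whole-number counts were only 0.406 to 0.444 of the RSEM expected counts, against 1.98 to 2.36 for the 10 members, so its level depends on the file used. Brk1, the smallest subunit, was at 346 and 293 TPM in Ctrl and 336 and 386 TPM in dKO. None of the 4 tested WAVE subunits outside the set was called (edgeR quasi-likelihood test), with adjusted p of at least 0.426.

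**Figure D2:**
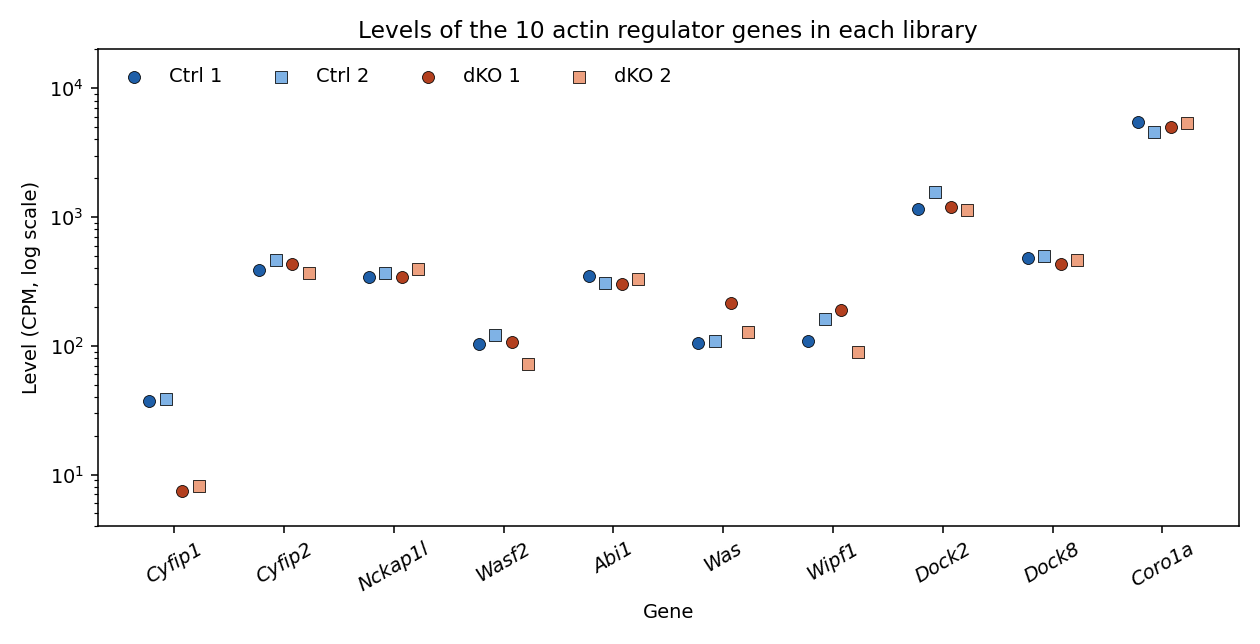
Points give the level in CPM (vertical axis, log scale) of each of the 10 genes (horizontal axis) in the 4 libraries, with colour for the group and shape for the replicate. Cyfip1 is the gene whose groups lie far apart, at 37.2 and 38.5 CPM for Ctrl against 7.50 and 8.17 CPM for dKO, and Was and Wipf1 show the widest gaps within dKO.

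In the WASP branch, Was, the X-linked gene of the Wiskott-Aldrich syndrome protein, measured 105 and 109 CPM in the Ctrl pair against 213 and 128 CPM in the dKO pair. Both dKO libraries lay above both Ctrl libraries, but they differed 1.67-fold from each other. Its log2 fold change was 0.67 (SE 0.24), and it was 0.26 without dKO replicate 1 and 0.99 without dKO replicate 2. Was lies on the X chromosome, and the groups differ in Xist and Y-linked transcripts, whose part in this value was not tested. Wipf1, which encodes the WASP-interacting protein that protects WASP from degradation, measured 110 and 160 CPM in the Ctrl pair against 190 and 89.1 CPM in the dKO pair. The 2 dKO libraries, 2.13-fold apart, spanned both Ctrl libraries, and the log2 fold change was 0.05 (SE 0.34), -0.60 without dKO replicate 1 and 0.49 without dKO replicate 2. Within their families Was made up 77.2% to 87.6% of the TPM of Was and Wasl, and Wipf1 made up 87.2% to 94.4% of that of the WIP genes. Wasf2, Was and Wipf1 were each higher in dKO 1 than in dKO 2, by 1.49 to 2.13-fold, whereas Cyfip1 differed by 1.09-fold in the other direction.

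Dock2, the Rac exchange factor of leukocytes, measured 1160 and 1572 CPM in the Ctrl pair against 1203 and 1140 CPM in the dKO pair, with a log2 fold change of -0.22 (SE 0.18). Ctrl 2 stood above the other libraries, which were close to each other. Dock8, a Cdc42 exchange factor needed for NK cell synapses, measured 484 and 498 CPM in the Ctrl pair against 433 and 468 CPM in the dKO pair. The groups did not overlap, but the difference was small, with a log2 fold change of -0.12 (SE 0.14). Coro1a, a coronin that binds filaments and Arp2/3 and is the most abundant member at 5693 to 6580 TPM, measured 5476 and 4583 CPM in the Ctrl pair against 5022 and 5366 CPM in the dKO pair. Its groups overlapped, and the log2 fold change was 0.05 (SE 0.16).

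By mean TPM over the 4 libraries the members ran from Coro1a (6181), Dock2 (390), Abi1 (243) and Nckap1l (124) through Cyfip2 (102), Was (101), Dock8 (89.6) and Wipf1 (57.6) to Wasf2 (30.01) and Cyfip1 (10.02). The ranges of Cyfip2, Was and Dock8 overlapped one another. Across the set, 1 of 10 members was called lower (Cyfip1) and 0 were called higher. Of all 13904 genes tested, 0.611% were called in either direction, 0.295% lower and 0.316% higher (edgeR, adjusted p under 0.05). The groups did not overlap in CPM for 3 members, Cyfip1, Was and Dock8, against 41.6% of all genes tested. Because the contrast led to the choice of the set, nothing is read from these counts. The 9 members without Cyfip1 had log2 fold changes from -0.31 to 0.67 with a median of -0.05, beside a median of 0.01 over all genes tested. All 10 members passed the filter on low counts in both groups.

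Sequence upstream of the start was read for members in the RefSeq promoter table (GRCm38.p6), which is not the mm9 build of the counts. It held 12 windows of 250 bases for 8 members: Cyfip2, Wasf2, Abi1, Was, Wipf1, Dock2, Dock8 and Coro1a. The letters CGGAAG, a core of the sites that GABP and other Ets factors bind, were searched on both strands. They were present in a window of 4 members, Wasf2, Wipf1, Dock2 and Dock8, and in 15.3% of all 27025 genes in the table (13.6% of windows). The windows of Dock2 (chr11:34783906-34784155, minus strand) and Dock8 (chr19:24999279-24999528, plus strand) are printed 5′ to 3′ on the strand of the gene, because these exchange factors act on the Rac and Cdc42 switches of both branches and hold the letters. Capitals mark the motif, whose first base lies 158 bases before the start of Dock2 and 11 bases before that of Dock8.
Dock2: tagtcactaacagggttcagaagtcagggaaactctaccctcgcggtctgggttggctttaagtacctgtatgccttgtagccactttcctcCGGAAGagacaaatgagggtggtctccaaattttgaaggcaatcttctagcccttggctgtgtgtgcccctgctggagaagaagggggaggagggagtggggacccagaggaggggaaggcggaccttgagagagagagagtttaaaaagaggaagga
Dock8: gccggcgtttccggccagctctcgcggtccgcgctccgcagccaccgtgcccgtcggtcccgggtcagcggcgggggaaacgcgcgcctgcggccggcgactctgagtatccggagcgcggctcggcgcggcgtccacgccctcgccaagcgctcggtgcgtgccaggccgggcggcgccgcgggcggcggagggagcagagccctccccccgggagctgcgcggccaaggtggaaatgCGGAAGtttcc
A match describes these letters and does not show binding. The 4 members with a match had log2 fold changes of -0.31 (Wasf2), 0.05 (Wipf1), -0.22 (Dock2) and -0.12 (Dock8).

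Beyond the set, 102 further genes of the actin pathway, including 4 partners of CYFIP1 in RNA binding, were listed, of which 97 were tested and 0 were called (edgeR, adjusted p at least 0.105). The unadjusted p was under 0.05 for 11 of the 97, beside 10.6% of all genes tested. DESeq2 called 2, beside 2.92% of all genes it tested. Both shares were near the background. Their median log2 fold change was -0.08, with 59 negative and 38 positive, beside 0.01 and 48.4% negative over all genes tested. The lists were drawn up with earlier results of these data known.

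**Figure D3:**
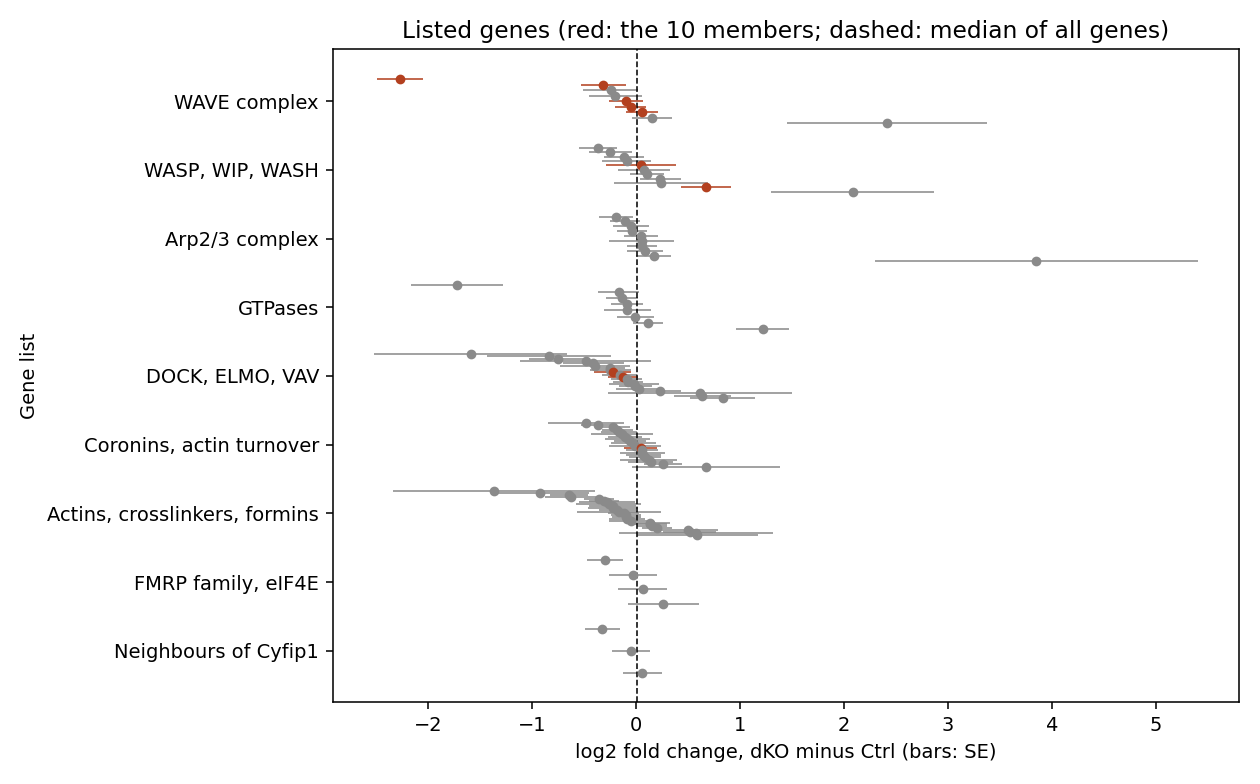
Each point is the log2 fold change of a tested gene (horizontal axis, dKO minus Ctrl, bars are the SE), placed by list (vertical axis), with the 10 members in red and the median of all genes dashed. Cyfip1 stands at -2.27, and the 3 points beyond 2 are Nckap1, Jmy and Actr3b, all of low level with wide error bars.

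The targets of WAVE and WASP are the Arp2/3 subunits, of which 10 of 10 were tested and 0 called. Their median log2 fold change was 0.05. Actr3, the actin-like core subunit, measured 2102 and 1701 CPM in the Ctrl pair against 1576 and 1757 CPM in the dKO pair (edgeR adjusted p = 0.771 for a log2 fold change of -0.19, SE 0.16). Actr3b, a rarely used Arp3 paralogue, had 0 and 2 counts in Ctrl and 13 and 17 counts in dKO (edgeR adjusted p = 0.430). Apart from Actr3b, the log2 fold changes of the Arp2/3 subunits lay between -0.19 and 0.17.

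Rac1 had the smallest p of the 97 genes. It encodes the Rac GTPase of most tissues, the direct activator of the WAVE complex, and measured 113 and 76.4 CPM in the Ctrl pair against 176 and 264 CPM in the dKO pair. Both dKO libraries lay above both Ctrl libraries (log2 fold change 1.22, SE 0.25), and the difference missed the threshold (edgeR adjusted p = 0.105). Over the alternatives the adjusted p of Rac1 ranged from 1.99e-08 without a filter on low counts to 0.214 without dKO replicate 2, and it passed with DESeq2 (0.000227), without Ctrl replicate 1 (0.0484), without dKO replicate 1 (0.0175) and with a crossed replicate block (0.0138). Rac3, a Rac paralogue best known from brain, measured 4.90 and 5.12 CPM in the Ctrl pair against 1.15 and 1.89 CPM in the dKO pair (edgeR adjusted p = 0.192 for a log2 fold change of -1.72, SE 0.44), and it passed without a filter (0.0382) but not in the other alternatives, up to 0.607. Rac2, the Rac of blood cells, was at 904 TPM on average over the 4 libraries against 233 TPM for Rac1, with a log2 fold change of -0.09 (SE 0.15). Of the 8 GTPases tested, 0 were called and the median was -0.09.

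Among DOCK, ELMO and VAV exchange factors outside the set, 18 were tested, 0 called and 13 negative, with a median of -0.12. Dock6, an exchange factor for Rac and Cdc42, measured 4.93 and 4.43 CPM in the Ctrl pair against 7.75 and 8.94 CPM in the dKO pair (edgeR adjusted p = 0.405 for a log2 fold change of 0.83, SE 0.31). Vav2, an exchange factor that acts after receptor signals, measured 11.01 and 13.3 CPM in the Ctrl pair against 6.69 and 7.78 CPM in the dKO pair (edgeR adjusted p = 0.409 for a log2 fold change of -0.75, SE 0.29). In both genes the groups did not overlap, at low levels.

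The remaining WASP, WIP and WASH genes gave 0 calls among 9 tested, with a median of 0.08. Jmy, an Arp2/3 activator that also acts with p53, had 9 and 62 counts in Ctrl and 126 and 155 counts in dKO (edgeR adjusted p = 0.401 for a log2 fold change of 2.08, SE 0.78). The 2 Ctrl libraries lay far apart, and the log2 fold change of Jmy was 1.27 without Ctrl replicate 1 and 4.08 without Ctrl replicate 2, where it passed (adjusted p = 0.0240). Over its other alternatives the adjusted p ran from 0.0152 without a filter to 0.719 without dKO replicate 2.

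Coronins and actin turnover genes gave 0 calls among 19 tested outside the set, with a median of -0.02. Wdr1, which speeds filament disassembly by cofilin, measured 770 and 618 CPM in the Ctrl pair against 517 and 558 CPM in the dKO pair (edgeR adjusted p = 0.485 for a log2 fold change of -0.37, SE 0.16). Gmfg, which removes actin branches, measured 42.0 and 37.2 CPM in the Ctrl pair against 47.3 and 47.7 CPM in the dKO pair (edgeR adjusted p = 0.705 for a log2 fold change of 0.26, SE 0.19). Among 25 tested genes for actins, monomer binders, crosslinkers, capping proteins and formins, 0 were called and 17 were negative, with a median of -0.12. Flna, the X-linked gene of the crosslinker filamin A, measured 506 and 559 CPM in the Ctrl pair against 391 and 291 CPM in the dKO pair (edgeR adjusted p = 0.232 for a log2 fold change of -0.64, SE 0.18). Its adjusted p ranged from 0.0111 without a filter to 0.632 without dKO replicate 2, and was 0.0498 with DESeq2. Lcp1, the leukocyte bundling protein L-plastin, measured 2916 and 2768 CPM in the Ctrl pair against 2235 and 2201 CPM in the dKO pair (edgeR adjusted p = 0.426 for a log2 fold change of -0.36, SE 0.14).

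CYFIP1 also joins FMRP to the cap-binding protein eIF4E. Of those RNA-binding partners, Fmr1, Fxr1, Fxr2 and Eif4e, 4 were tested and 0 called. Eif4e measured 154 and 120 CPM in the Ctrl pair against 109 and 114 CPM in the dKO pair (edgeR adjusted p = 0.632 for a log2 fold change of -0.30, SE 0.18), and Fxr2 had 0.26 (SE 0.34, edgeR adjusted p = 0.863). On chromosome 7, Cyfip1 lies in a group with Nipa2, Nipa1, Tubgcp5 and Herc2. Tubgcp5, a gamma-tubulin ring component, measured 36.2 and 37.2 CPM in the Ctrl pair against 36.3 and 40.3 CPM in the dKO pair (edgeR adjusted p = 0.954 for a log2 fold change of 0.06, SE 0.19). Herc2, a large ubiquitin ligase gene, had -0.05 (SE 0.18, edgeR adjusted p = 0.959). Nipa2, a magnesium transporter gene, measured 136 and 123 CPM in the Ctrl pair against 112 and 94.6 CPM in the dKO pair (edgeR adjusted p = 0.567 for a log2 fold change of -0.33, SE 0.17), and its annotated end overlaps that of Cyfip1 on the opposite strand, from 55931287 to 55932602 in GRCm38. Nipa1 had 2 counts in dKO 1 and 0 in the other libraries, and was not tested. None of the 3 tested neighbours was called.

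By pattern over the 4 libraries, the genes nearest to Cyfip1 among 8163 others whose mean reached 10 CPM were Cd3e, 2610002J02Rik and Klrg1. Likeness was the Euclidean distance of log2 CPM centred on the mean of each gene, at 0.246, 0.332 and 0.382. Cd3e, a chain of the T cell receptor complex, measured 47.5 and 52.5 CPM in the Ctrl pair against 8.90 and 12.2 CPM in the dKO pair. Klrg1, an inhibitory receptor of mature NK cells, measured 113 and 87.3 CPM in the Ctrl pair against 23.7 and 21.1 CPM in the dKO pair. With 2 against 2 libraries, this measure mainly finds genes with a like difference between the groups.

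Most markers of T cells were lower beside Cyfip1. Some markers of granulocyte and B cell precursors also lay lower, but were not called. Of 10 T cell markers, 9 had a negative log2 fold change and 2 were called lower (Cd3e and Trac), although the sort gate excluded CD3e on the surface. Summed over the list they measured 249 and 253 CPM in the Ctrl pair against 76.8 and 103 CPM in the dKO pair. That sum was 2.79-fold lower on the means, against 4.83-fold for Cyfip1. It includes Bcl11b, which went the other way, at 24.8 and 14.9 CPM in Ctrl against 29.1 and 23.9 CPM in dKO. Single T cell markers differed both more and less than Cyfip1, such as Cd5 (6.92-fold lower) and Cd3d (2.80-fold lower). No T cell marker was at 0 in any library. Cd4 was at 2.17, 7.50, 2.24 and 3.94 CPM and Cd8a at 7.02, 3.83, 0.342 and 1.89 CPM in the order Ctrl 1, Ctrl 2, dKO 1 and dKO 2. Markers of monocytes and macrophages summed to 3292 and 3585 CPM in the Ctrl pair against 3668 and 4211 CPM in the dKO pair, with Lyz2 and Ccr2 giving most of the sum. That sum was higher in both dKO libraries than in both Ctrl libraries. Ccr2 was too, at 2065 and 2173 CPM in Ctrl against 2454 and 2607 CPM in dKO, but the groups of Lyz2 overlapped. Of the 8 monocyte and macrophage markers, 2 were higher and 1 lower in both dKO libraries, and 4 had a negative log2 fold change. Markers of neutrophils and their precursors summed to 2142 and 2724 CPM in the Ctrl pair against 1321 and 2162 CPM in the dKO pair, and those of the B lineage to 108 and 239 CPM for Ctrl against 104 and 133 CPM for dKO. The groups overlapped for these last 2 sums, but not for some of their members. Mpo, an enzyme of granulocyte precursors, measured 348 and 104 CPM for Ctrl against 59.7 and 55.5 CPM for dKO, and Elane measured 106 and 39.4 CPM for Ctrl against 20.9 and 15.7 CPM for dKO. Igll1, a gene of B cell precursors, measured 5.46 and 2.50 CPM for Ctrl against 0.778 and 0.496 CPM for dKO. Both dKO libraries lay below both Ctrl libraries for 3 of 10 granulocyte markers (Mpo, Elane and Prtn3) and 3 of 8 B lineage markers (Igll1, Pax5 and Vpreb1). The same held for 8 of 10 T cell markers. Of all genes tested, 41.6% had groups that did not overlap, in either direction. In these lists 0 markers lay above both Ctrl libraries in both dKO libraries, so the counts are the same for either direction. The granulocyte and B lineage counts are not above 41.6%. A share for the lower direction alone was not counted, so nothing is read from them. Marker sums of dendritic cells were 80.3 to 92.7 CPM in Ctrl and 53.1 to 62.3 CPM in dKO, and those of megakaryocytes and platelets measured 3.82 and 5.57 CPM for Ctrl against 3.73 and 2.88 CPM for dKO. Both sums were lower in both dKO libraries. Bst2 gave most of the dendritic cell sum, at 80.7 and 62.3 CPM in Ctrl against 39.1 and 47.4 CPM in dKO. Flt3 and Clec9a, 2 other dendritic cell markers, were instead higher in both dKO libraries. Of the 4 megakaryocyte markers, 0 lay below both Ctrl libraries in both dKO libraries. The sums of erythroid cells and of basophils and mast cells overlapped between the groups. No marker of a cell type other than T cells was called. The part of other cells in the level of Cyfip1 was not tested.

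**Figure D4:**
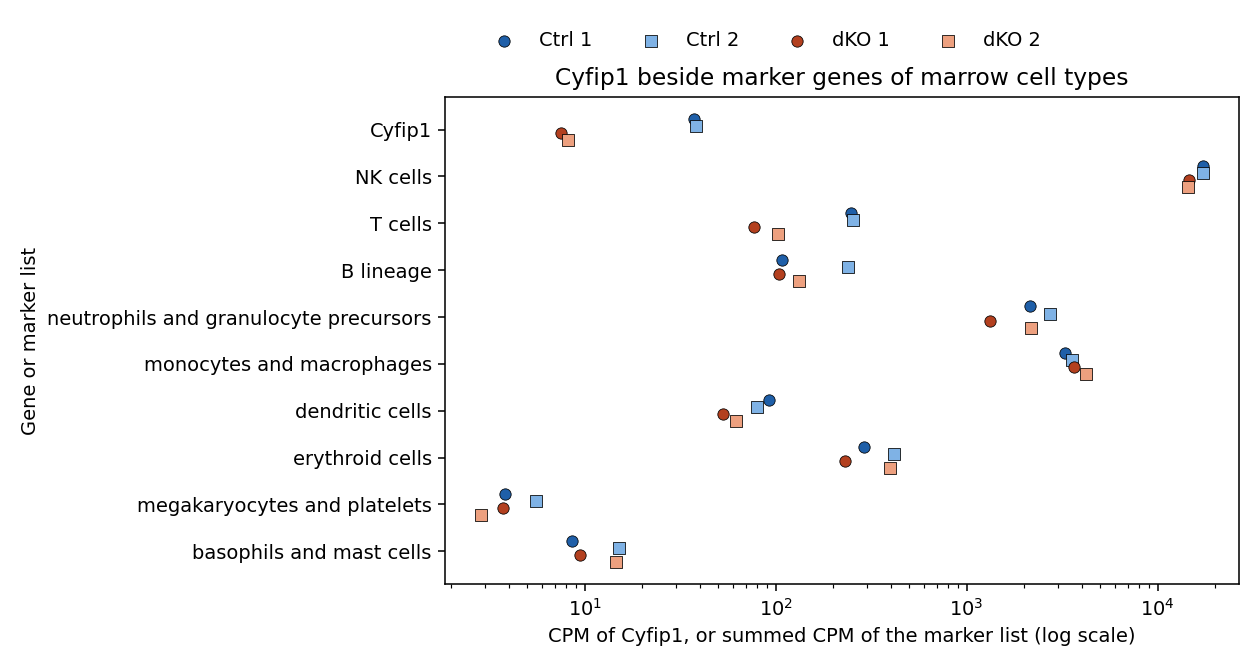
Points give the CPM of Cyfip1 or the summed CPM of a marker list (horizontal axis, log scale) for each gene or list (vertical axis) in the 4 libraries. Cyfip1 and the T cell list (249 and 253 CPM in Ctrl, 76.8 and 103 CPM in dKO) show the widest gaps between groups. The sums of the NK, monocyte, dendritic cell and megakaryocyte lists also lie apart, by less. The dendritic cell sum is mostly Bst2, and the monocyte sum mostly Lyz2 and Ccr2.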

How the data were processed

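RNA-seq files of 4 libraries were used, grouped as Ctrl and dKO by their titles. The submitters' processing notes name the build mm9, the aligner TopHat2 2.1.1, the counters HTSeq 0.6.1 and RSEM 1.3.0, the trimmer Trimmomatic 0.36, and also DESeq2 1.32.0 and FastQC 0.11.5. How strand was handled was not given in the sources used here, nor were settings or annotation, so values of overlapping and antisense genes are uncertain. Whole-number gene counts were deposited, and, per the file headers, RSEM expected counts, TPM, FPKM and transcript lengths as well. The median ratio of count to expected count was 2.05 to 2.07 per library, so about 2 counts stood for each expected fragment. TPM served to compare levels between genes, and the deposited FPKM entered no result. Rows naming no gene were left out. They held 20.5% and 23.7% of counted reads in Ctrl 1 and Ctrl 2, and 26.0% and 26.5% in dKO 1 and dKO 2. Genes with a count numbered 15921 and 18206 in Ctrl, and 19450 and 19220 in dKO. Whether this bears on genes of low count was not tested.

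Counts were fitted with edgeR 4.0.16 in R 4.3.3 (TMM, filterByExpr with a minimum count of 10, robust quasi-likelihood test), with Benjamini-Hochberg adjustment over 13904 genes at 0.05. The procedure was run on counts simulated with spreads estimated from these same libraries. That run does not test whether those spreads are right. Dividing the size of a log2 fold change by the root of its F gave the SE. CPM are counts per TMM-scaled library size. The members and lists were chosen with earlier results of these data known. Genes were named by a rule: the members, the other WAVE subunits, the neighbours of Cyfip1, Gabpb2, called genes or the 2 smallest p per list, and the 3 patterns nearest to Cyfip1. Rac2 and single marker genes were named after their values were seen. Alternatives were other scalings, filters of 0 and 50 counts, DESeq2 1.42.0, a replicate block, leaving out each library, and RSEM expected counts after rounding. The labels call the replicates biological without naming the animals.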

Additional observations from a re-analysis of the deposited data

How the results depend on the processing

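Cyfip1 was called lower in every alternative that kept all libraries. Its log2 fold change was from -2.34 to -2.21 when each library was left out. The set was chosen for this difference and the refits use the same libraries, so they describe the value and add no support. The number of changed genes (85) was 559 without a filter on low counts, 147 with a minimum count of 50, 398 with DESeq2 and 73 to 187 when each library was left out, the highest without Ctrl replicate 2. Called members (1) became 2 without a filter, where Was passed (log2 fold change 0.66). Called pathway genes outside the members (0) were 4 without a filter (Rac1, Rac3, Jmy and Flna), 2 with DESeq2 (Rac1 and Flna) and 0 to 2 when each library was left out: Rac1 without Ctrl replicate 1, Jmy without Ctrl replicate 2, and Rac1 and Coro2a without dKO replicate 1. Coro2a was named after its values were seen.

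Members with a log2 fold change near 0 turned sign when a library was left out. The ranges were -0.0517 to 0.157 for Nckap1l, -0.137 to 0.0387 for Abi1, -0.600 to 0.489 for Wipf1, -0.229 to 0.0422 for Cyfip2, -0.427 to 0.0149 for Dock2 and -0.0755 to 0.178 for Coro1a. Wasf2 kept its sign, at -0.631 to -0.0551. None was called in these fits, and the cause was not tested. With the replicate block Wipf1 was at -0.0278, and 100 genes were changed. The deviations of same-numbered libraries from their group means correlated at r = -0.176 over genes, and a crossed pairing, added after this was seen, called 156 genes, 1 member and 1 pathway gene outside the members (Rac1), with Wipf1 at -0.0275. The block changed no other call among the members and the listed pathway genes. Calls of other genes, such as the markers, were not compared under it. Low counts limit Nckap1 and Actr3b, whose fold changes depend on a few fragments.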

Other observations

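The mean transcript length that RSEM assigned to Cyfip1 was 3716, 3372, 3738 and 3276 bases in Ctrl 1, Ctrl 2, dKO 1 and dKO 2, while that of Cyfip2 was 6291 to 6295 bases in all 4 libraries. RSEM assigned 598, 606, 103 and 120 expected fragments to Cyfip1, and 6504.5, 7580.6, 6717.6 and 5446.8 to Cyfip2. The length of Cyfip1 did not separate the groups.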
